A study of Mus musculus with 8 samples.

Results

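The synaptonemal complex is the protein ladder that holds homologous chromosomes together in meiotic prophase. This report describes 10 genes that encode its parts and the HORMA-domain proteins of the chromosome axis: *Sycp1*, *Sycp2*, *Sycp3*, *Syce1*, *Syce2*, *Syce3*, *Tex12*, *Hormad1*, *Hormad2* and *Trip13*. They were taken by name, not by their values, from the 21058 genes listed, and all 10 were among the 17643 genes tested. The fewest counts of any of them in a library was 146, for *Tex12*.

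SYCP2 and SYCP3 form the axis, or lateral element, along each pair of sister chromatids. SYCP1 spans the gap between homologous axes as the transverse filament, and SYCE1, SYCE2, SYCE3 and TEX12 join its ends in the central element. HORMAD1 and HORMAD2 coat axes that are not yet synapsed and help to recruit checkpoint signalling there, and the ATPase TRIP13 helps to remove them as synapsis proceeds. At pachynema the autosomes are synapsed, while most of the X and Y axes are not and their chromatin is silenced.

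RNA was sequenced from pachytene spermatocytes of 4 *Arid1a* WT and 4 *Arid1a* cKO samples, which were purified from testes of adult mice on a CD1 background by Sta-Put sedimentation at unit gravity. *Arid1a* encodes a DNA-binding subunit of the BAF (SWI/SNF) chromatin remodeller, and the comparison addresses how transcript abundance at pachynema differs without it. Males called *Arid1a* cKO had the genotype *Arid1a* fl/fl; Stra8-Cre Tg/0, in which Cre acts in germ cells from the spermatogonial stage. The *Arid1a* WT males were *Arid1a* fl/fl or *Arid1a* fl/+ without Cre, so floxed alleles were present in both groups. Excision was described as incomplete, in that some pachytene cells of *Arid1a* cKO males kept ARID1A, and each purification pooled the testes of several males. In such bulk samples, fewer cells of a type and less RNA per cell cannot be told apart.

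Libraries held 18308688 to 22044507 estimated counts in *Arid1a* WT and 15850961 to 21626772 in *Arid1a* cKO. The targeted gene, *Arid1a*, was at 105.0, 128.5, 121.0 and 98.8 CPM (counts scaled to the size of each library) in *Arid1a* WT replicates 1 to 4 and at 76.4, 81.0, 82.9 and 78.3 CPM in *Arid1a* cKO. The genotypes did not overlap, and *Arid1a* fell by 0.51 on the log2 scale (SE 0.07, edgeR adjusted p = 2.31e-05). These gene counts also hold reads from exons outside the floxed part. Of 8 markers of pachytene spermatocytes, 3 were called higher, 4 lower and 1 not called, with summed levels of 8071.2 to 9598.3 CPM in *Arid1a* WT and 6893.2 to 7406.9 CPM in *Arid1a* cKO. These sums were apart through *Piwil1* (1596.8 and 108.6 CPM), without which they overlapped (6456.3 to 8060.6 CPM and 6780.7 to 7300.6 CPM). All 10 markers of round and elongating spermatids were higher, with sums of 1536.7 to 1712.4 CPM in *Arid1a* WT and 7266.9 to 7591.3 CPM in *Arid1a* cKO. Of 9 leptotene and zygotene markers, 6 were higher and 2 lower, with sums of 510.4 to 621.1 CPM and 262.1 to 273.7 CPM. Of 9 spermatogonial markers, 7 were higher and 1 lower, with sums of 179.7 to 185.7 CPM and 162.3 to 170.4 CPM, but of 92.5 to 93.5 CPM and 148.1 to 155.5 CPM without *Id4*. All 5 tested Sertoli cell markers were lower (89.8 to 110.1 CPM against 32.3 to 36.5 CPM, with *Rhox5* at 0 in every library), as were all 5 Leydig cell markers (54.1 to 57.0 CPM against 6.51 to 6.84 CPM). Macrophage and blood markers summed to 3.36 to 4.32 CPM and 7.54 to 8.77 CPM, with 3 of 5 higher and 1 lower. These marker levels moved with genotype beside every difference given here, and their part in those differences was not tested.

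The genes did not move as a block. Of the 10, *Sycp1*, *Syce2* and *Syce3* had elevated transcript abundance in *Arid1a* cKO pachytene spermatocytes. *Sycp2*, *Sycp3*, *Tex12*, *Hormad1* and *Hormad2* were lower, and *Syce1* and *Trip13* were not called. Over all genes tested, 36.5% were called higher and 37.5% lower at an edgeR adjusted p of 0.05 or less, so that calls in either direction took in 74.0% of genes. Most genes were misexpressed by this test, so a call by itself sets none of the 10 apart. The median log2 fold change was -0.28 over the 10 genes and -0.02 over all genes tested. All 8 called genes also had CPM values that did not overlap between genotypes, 3 with *Arid1a* cKO above and 5 below. Of all genes tested, 34.0% and 34.9% had such a separation. Calls and separations come from the same counts, so the separation adds no separate support. The plot of log2 fold changes shows these values with their standard errors.

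**Figure D1:**
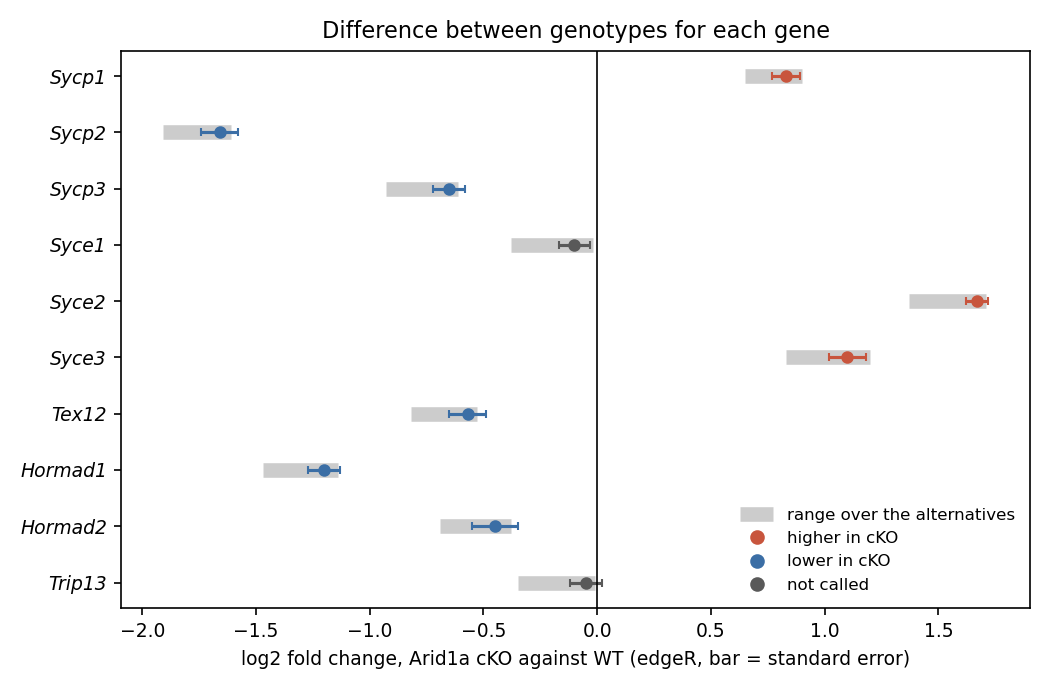
Log2 fold change of each gene in *Arid1a* cKO against *Arid1a* WT pachytene spermatocytes (x axis, log2 units), with points for the edgeR estimate from 4 libraries a genotype and bars for its standard error. Grey bands span the estimates under the alternative settings, and no band crosses 0. *Syce2* lies farthest to the right at 1.67 and *Sycp2* farthest to the left at -1.66.

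The stretches just before the transcription start are shown for *Sycp1* and *Syce2*, which rose, and for *Sycp3* and *Hormad1*, which fell, so that the letters upstream of genes with opposite changes can be read side by side. Each is the 250 bases before a RefSeq start on GRCm38.p6, the patch release of mm10, written 5′ to 3′ on the strand of the gene. Capitals mark letters of the MYB (AACTGNC), E2F (GCGGGAA), E-box (CACGTG) or STRA8 (CNCCTCAG) motifs on either strand.
Sycp1, chr3:102936101-102936350, minus strand: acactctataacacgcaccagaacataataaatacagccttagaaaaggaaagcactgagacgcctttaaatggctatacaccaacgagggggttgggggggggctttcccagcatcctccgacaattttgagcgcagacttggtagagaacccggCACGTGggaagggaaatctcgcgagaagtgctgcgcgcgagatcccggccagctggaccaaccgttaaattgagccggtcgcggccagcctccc
Syce2, chr8:84871861-84872110, plus strand, the upstream of 2 starts: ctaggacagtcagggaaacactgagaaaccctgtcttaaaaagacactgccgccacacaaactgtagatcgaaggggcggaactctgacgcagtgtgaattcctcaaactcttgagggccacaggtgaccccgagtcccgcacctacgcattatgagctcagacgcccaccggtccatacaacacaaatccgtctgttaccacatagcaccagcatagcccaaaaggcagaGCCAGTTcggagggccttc
Sycp3, chr10:88459337-88459586, plus strand: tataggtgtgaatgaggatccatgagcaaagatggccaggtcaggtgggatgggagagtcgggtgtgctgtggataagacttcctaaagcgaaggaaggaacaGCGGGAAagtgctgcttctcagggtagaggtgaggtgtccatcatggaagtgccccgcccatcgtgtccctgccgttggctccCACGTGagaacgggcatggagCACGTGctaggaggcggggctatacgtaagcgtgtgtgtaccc
Hormad1, chr3:95559427-95559676, plus strand: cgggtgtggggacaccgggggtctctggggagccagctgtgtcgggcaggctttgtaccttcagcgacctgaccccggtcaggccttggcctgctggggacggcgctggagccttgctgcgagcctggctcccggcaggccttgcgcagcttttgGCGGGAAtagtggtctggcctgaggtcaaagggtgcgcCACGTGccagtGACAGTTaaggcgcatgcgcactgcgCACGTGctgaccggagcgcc

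The E-box letters lay 94 bases before the start of *Sycp1*, 64 and 43 bases before that of *Sycp3*, and 57 and 20 bases before that of *Hormad1*. The window shown for *Syce2* held the MYB letters on the reverse strand, 19 bases before its start. The window of the second *Syce2* start, which lies within the gene, held E-box, E2F and STRA8 letters as well, the last 2 of them overlapping, 34 and 39 bases before that start. Distances run from the first letter of the match to the start. Counting every start of a gene, CACGTG was found for 5 of the 10 genes (*Sycp1*, *Sycp3*, *Syce2*, *Tex12* and *Hormad1*) and for 6.86% of 27025 genes with a window of this length. GCGGGAA was found for 4 of the 10 (*Sycp3*, *Syce2*, *Tex12* and *Hormad1*) and for 4.38% of all. AACTGNC was found for 4 (*Sycp2*, *Syce1*, *Syce2* and *Hormad1*) and for 12.1% of all, CNCCTCAG for 2 (*Syce2* and *Hormad2*) and for 7.39% of all, and the CRE letters TGACGTCA for 0 and for 1.77% of all. The E-box and E2F letters were each present upstream of genes that rose and of genes that fell. These are matches of letters and not binding sites.

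*Sycp1* (Entrez gene 20957, chr3:102818499-102936100) encodes the transverse filament protein. Its abundance was 179.2, 158.4, 154.7 and 171.6 CPM in *Arid1a* WT replicates 1 to 4 and 310.0, 280.6, 290.5 and 296.6 CPM in *Arid1a* cKO. The groups were well apart, the lowest *Arid1a* cKO library exceeding the highest of *Arid1a* WT, and the 4 libraries of a genotype were close to each other (166.0 ± 11.4 and 294.4 ± 12.3 CPM, SD, n = 4 each). The difference was 1.77-fold, or 0.83 on the log2 scale (SE 0.06, edgeR adjusted p = 5.59e-09), and 24.9% of genes tested rose at least as much. Of its 31-base words, 15.6% also occurred in other genes, most often in *Sycp1-ps1*, a pseudogene copy on chromosome 7 that was higher in *Arid1a* cKO too (log2 fold change 1.5, edgeR adjusted p = 2.57e-09) from a mean of 5.41 CPM in *Arid1a* WT.

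The axis genes *Sycp2* and *Sycp3* both fell, *Sycp2* by more. *Sycp2* (Entrez gene 320558, chr2:178345295-178407776) was at 1114.7, 1012.3, 1037.4 and 849.9 CPM in *Arid1a* WT and at 344.2, 296.8, 311.7 and 315.7 CPM in *Arid1a* cKO. The lowest *Arid1a* WT library, replicate 4, was still far above the highest *Arid1a* cKO library. *Sycp2* was 3.16-fold lower in *Arid1a* cKO (log2 fold change -1.66, SE 0.08, edgeR adjusted p = 7.63e-11), and 5.62% of genes tested fell at least as much. None of its 31-base words occurred in another gene. SYCP3, the partner that SYCP2 binds in the axis, is encoded by *Sycp3* (Entrez gene 20962, chr10:88459587-88473236). *Sycp3* was at 236.1, 217.4, 188.6 and 221.9 CPM in *Arid1a* WT and at 145.1, 130.4, 130.7 and 143.1 CPM in *Arid1a* cKO. The genotypes did not overlap, and the difference was 1.57-fold (log2 fold change -0.65, SE 0.07, edgeR adjusted p = 5.54e-07). *Chpt1*, which lies on the opposite strand and overlaps the end of *Sycp3*, shares 46.5% of the 31-base words of *Sycp3*, counted on either strand. Reads from the overlap could be given to either gene if their strand was not used, which the sources do not state. *Chpt1* itself was higher in *Arid1a* cKO (log2 fold change 0.60, edgeR adjusted p = 4.01e-08).

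The 4 central element genes went in different directions. *Syce2* (Entrez gene 71846, chr8:84872111-84887446) was at 46.8, 45.2, 49.6 and 51.0 CPM in *Arid1a* WT and at 159.1, 150.7, 149.9 and 152.0 CPM in *Arid1a* cKO. Among the 10 genes it had the largest rise, 3.17-fold (log2 fold change 1.67, SE 0.05, edgeR adjusted p = 7.02e-13), and 12.9% of genes tested rose at least as much. The *Arid1a* cKO libraries lay far above those of *Arid1a* WT. TEX12, the protein that assembles with SYCE2 into fibres of the central element, is encoded by *Tex12* (Entrez gene 66654, chr9:50557148-50561268), which fell. *Tex12* was at 14.7, 13.4, 12.0 and 14.2 CPM in *Arid1a* WT and at 9.69, 8.74, 8.80 and 9.38 CPM in *Arid1a* cKO. Its 2 genotypes did not overlap, and it was 1.48-fold lower (log2 fold change -0.57, SE 0.08, edgeR adjusted p = 2.28e-05).

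*Syce3* (Entrez gene 75459, chr15:89390174-89410503), whose small product helps to build the central element on SYCP1, was at 23.8, 20.9, 20.6 and 27.1 CPM in *Arid1a* WT and at 49.2, 49.2, 47.5 and 52.8 CPM in *Arid1a* cKO. The groups were apart, with a 2.15-fold rise (log2 fold change 1.10, SE 0.08, edgeR adjusted p = 1.12e-08). SYCE1 binds SYCE3, and its gene *Syce1* (Entrez gene 74075, chr7:140777229-140787854) was at 421.4, 371.1, 338.9 and 446.3 CPM in *Arid1a* WT and at 387.8, 361.6, 363.7 and 359.1 CPM in *Arid1a* cKO. The *Arid1a* cKO libraries lay within the range of the *Arid1a* WT libraries, and *Syce1* was not called (log2 fold change -0.10, SE 0.07, edgeR adjusted p = 0.242). The 95% interval of its fold difference ran from 0.843 to 1.03. Without *Arid1a* WT replicate 3, the lowest library of its genotype, *Syce1* was called lower (log2 fold change -0.17, edgeR adjusted p = 0.0155). It was also called lower on library size without TMM factors (-0.20, edgeR adjusted p = 0.00646) and on TPM, the deposited unit that is corrected for transcript length, with limma (-0.23, adjusted p = 0.00454 with a pseudocount of 1).

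*Hormad1* and *Hormad2*, the HORMA-domain genes of the unsynapsed axis, were both lower in *Arid1a* cKO. *Hormad1* (Entrez gene 67981, chr3:95559677-95587863) was at 258.1, 220.4, 218.5 and 227.8 CPM in *Arid1a* WT and at 111.0, 98.0, 93.1 and 101.4 CPM in *Arid1a* cKO. Its highest *Arid1a* cKO library was below its lowest *Arid1a* WT library. The difference was 2.29-fold (log2 fold change -1.20, SE 0.07, edgeR adjusted p = 5.75e-10), and 12.7% of genes tested fell at least as much. Of the 31-base words of *Hormad1*, 36.3% also occurred in other genes, most often in the pseudogene *Gm15529*, which is not in the table analysed here. *Hormad2* (Entrez gene 75828, chr11:4345801-4441198) was much less abundant, at 16.0, 15.1, 15.4 and 14.6 CPM in *Arid1a* WT and at 13.5, 9.42, 9.95 and 11.8 CPM in *Arid1a* cKO. The *Arid1a* cKO libraries varied more among themselves but stayed below those of *Arid1a* WT. *Hormad2* was 1.37-fold lower (log2 fold change -0.45, SE 0.10, edgeR adjusted p = 0.00103).

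*Trip13* (Entrez gene 69716, chr13:73912450-73937795), which encodes the ATPase that acts on HORMADs, was at 12.9, 13.4, 13.6 and 13.2 CPM in *Arid1a* WT and at 13.9, 12.6, 11.9 and 12.9 CPM in *Arid1a* cKO. The genotypes overlapped and *Trip13* was not called (log2 fold change -0.05, SE 0.07, edgeR adjusted p = 0.538). The 95% interval of its fold difference ran from 0.877 to 1.06, so that a difference up to these bounds was not resolved.

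Levels were compared between genes in TPM, which takes transcript length into account. In *Arid1a* WT, *Syce1* was the most abundant of the 10 at 439.0 ± 36.1 TPM (SD, n = 4). *Sycp3*, *Sycp2* and *Hormad1* followed at 317.2, 310.6 and 261.8 TPM, with libraries that overlapped between *Sycp3* and *Sycp2* and between *Sycp2* and *Hormad1*. *Syce3* at 115.6 TPM and *Syce2* at 102.4 TPM overlapped as well. *Sycp1* (78.5 TPM), *Tex12* (26.1 TPM), *Hormad2* (19.9 TPM) and *Trip13* (9.39 ± 0.501 TPM) came last, each apart from its neighbours. In *Arid1a* cKO the order was *Syce1* (373.9 ± 10.3 TPM), *Syce2* (294.1 TPM), *Syce3* (229.2 TPM), *Sycp3* (183.9 TPM), *Sycp1* (137.4 TPM), *Hormad1* (104.6 TPM), *Sycp2* (90.6 TPM), *Tex12* (16.1 TPM), *Hormad2* (13.4 TPM) and *Trip13* (8.09 ± 1.42 TPM). Only *Tex12* and *Hormad2* overlapped among neighbours in that order. *Syce1* thus stood first and *Trip13* last in both genotypes, while *Sycp2* moved down the order to just above *Tex12* and *Syce2* moved up to just below *Syce1*.

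**Figure D2:**
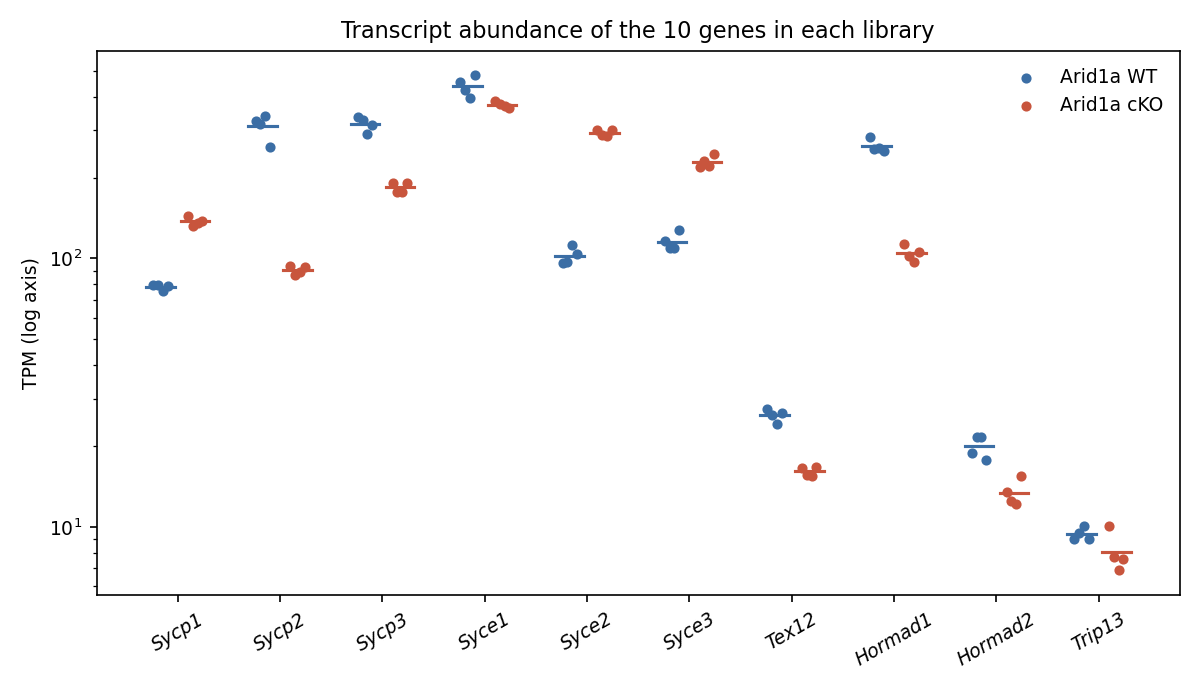
TPM of the 10 genes (y axis, log scale) in each library, with 1 point a library, lines for the mean of 4 libraries, *Arid1a* WT in blue and *Arid1a* cKO in red. *Trip13* is the gene whose genotypes overlap, at 9.01 to 10.1 TPM in *Arid1a* WT and 6.89 to 10.1 TPM in *Arid1a* cKO.

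The summed TPM of the 10 genes was 1680.4 ± 44.4 in *Arid1a* WT and 1451.2 ± 37.0 in *Arid1a* cKO (SD, n = 4 each), and its makeup differed. *Sycp2* made up 18.5% ± 2.13 of that sum in *Arid1a* WT and 6.24% ± 0.0968 in *Arid1a* cKO. *Hormad1* likewise took a smaller share, with 15.6% ± 0.526 and 7.20% ± 0.293. *Syce2* went from 6.10% ± 0.589 to 20.3% ± 0.0832, *Syce3* from 6.88% ± 0.510 to 15.8% ± 0.810 and *Sycp1* from 4.67% ± 0.0864 to 9.47% ± 0.212. The share of *Syce1* overlapped between genotypes (26.1% ± 1.92 and 25.8% ± 0.787). On the TPM scale 9 of the 10 genes did not overlap between genotypes, 3 above and 6 below in *Arid1a* cKO, where 29.3% and 35.5% of all genes tested had such a separation. The gene below on this scale but not in CPM was *Syce1*. The listed genes held 78.1% to 81.1% of all TPM in *Arid1a* WT libraries and 88.1% to 88.6% in *Arid1a* cKO libraries, so TPM values carry an offset between genotypes that ratios within a library do not.

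Ratios of partner genes within a library were taken for 6 pairs and are a description of the TPM values above, with no test. *Sycp2* to *Sycp3*, the axis pair, stood at 0.966, 0.968, 1.17 and 0.828 in *Arid1a* WT and at 0.493, 0.492, 0.505 and 0.482 in *Arid1a* cKO. Transcripts of the pair were thus near parity in *Arid1a* WT, and *Sycp2* was the scarcer in every *Arid1a* cKO library, a 1.98-fold difference. *Sycp1* to *Sycp3*, the transverse filament against the axis, went from 0.248 ± 0.0104 to 0.748 ± 0.0218 (SD, n = 4 each), or 3.01-fold higher. *Syce2* to *Tex12* showed the largest shift of the 6 pairs, at 3.49, 3.71, 4.65 and 3.92 in *Arid1a* WT and at 18.1, 18.5, 18.6 and 18.0 in *Arid1a* cKO, or 4.67-fold higher. The encoded proteins assemble together, and their transcripts moved apart in all 4 *Arid1a* cKO libraries. *Syce1* to *Syce3* went from 3.80 ± 0.125 to 1.64 ± 0.120, *Hormad1* to *Hormad2* from 13.3 ± 1.61 to 7.84 ± 0.684 and *Trip13* to *Hormad1* from 0.0360 ± 0.00298 to 0.0770 ± 0.00868. In all 6 pairs the 2 genotypes did not overlap, and every pair holds at least 1 called gene (*Syce3* beside *Syce1*, *Hormad1* beside *Trip13*). For single genes, 64.8% of all genes tested had TPM values that did not overlap. No such share was taken over ratios of other gene pairs, so the pairs have no like background.

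**Figure D3:**
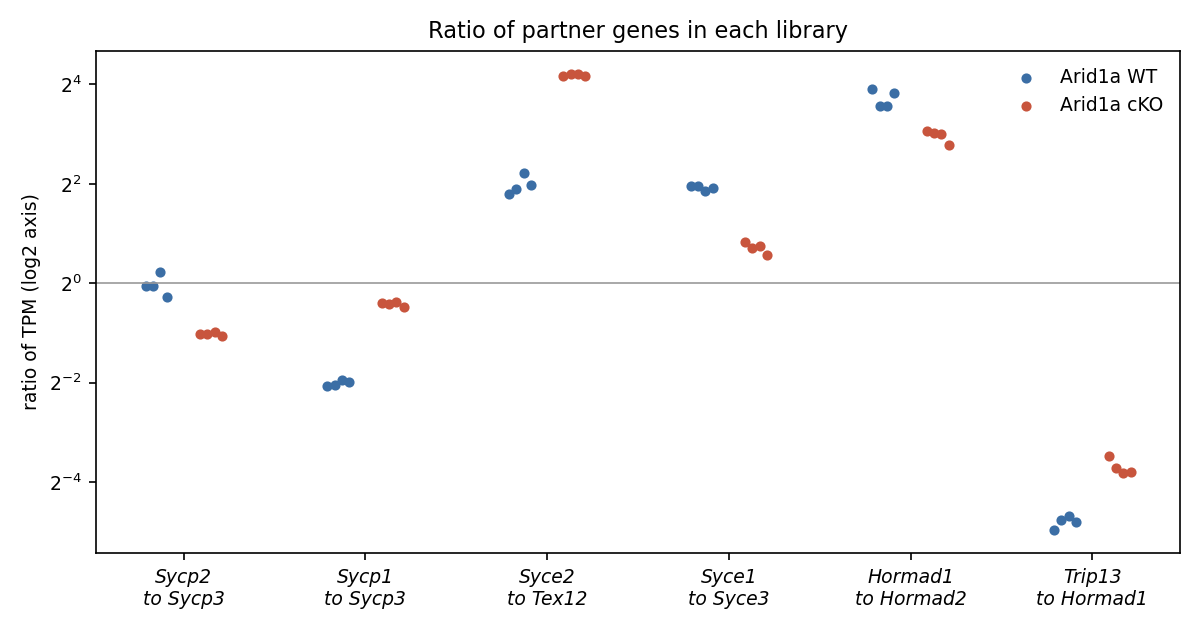
Ratio of TPM between partner genes (y axis, log2 scale) in each of the 4 *Arid1a* WT (blue) and 4 *Arid1a* cKO (red) libraries; the grey line marks equal TPM. The genotypes are apart for every pair, from 1.69-fold for *Hormad1* to *Hormad2* to 4.67-fold for *Syce2* to *Tex12*.

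The length of the transcripts that a gene's counts came from was recovered from the ratio of its count to its TPM, scaled within each library. None of the 10 genes had a mean length that differed by 10% or more with no overlap between genotypes, where 13.8% of 13958 genes did. The mean lengths differed by -3.64% for *Sycp1* to 7.91% for *Trip13*, and the median over all genes was 4.29%. Without *Arid1a* cKO replicate 1, 1 of the 10, *Trip13*, passed these limits.

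Other genes that act with these proteins, or share only a domain with them, were counted from lists by role. Of 12 partners and regulators of the synaptonemal complex, 3 were higher, 6 lower and 3 (*Sycp2l*, *Fkbp6* and *Skp1*) not called, next to 36.5% higher and 37.5% lower over all genes tested. *Cdk2*, whose kinase sits at telomeres and crossover sites on pachytene axes, fell from 153.9 ± 4.57 to 26.6 ± 1.31 CPM (SD, n = 4 each), 5.79-fold lower (edgeR adjusted p = 4.78e-14). *Plk1* and *Ccnb1*, which act in the exit from prophase, rose by 1.03 and 1.22 on the log2 scale (edgeR adjusted p = 2.88e-10 and 2.57e-10), whereas *Cdk1*, the kinase partner of cyclin B1, and *Aurkb* had log2 fold changes of -0.98 and -1.19 (edgeR adjusted p = 1.38e-09 and 1.83e-10). *Iho1*, an axis partner of HORMAD1 needed for double-strand break formation, was lower as *Hormad1* was (log2 fold change -0.82, edgeR adjusted p = 5.37e-08). *Six6os1* (listed as *4930447C04Rik*), a further central element gene, was called higher by a small amount (log2 fold change 0.19, edgeR adjusted p = 0.0319), and was not called without *Arid1a* cKO replicate 1, 3 or 4 (adjusted p = 0.0807, 0.0661 and 0.0595). Its call was also lost without TMM factors (0.09, edgeR adjusted p = 0.391), with length offsets (0.10, edgeR adjusted p = 0.321) and with limma on log2(TPM + 1) (0.01, adjusted p = 0.929) and on log2(TPM + 0.1) (0.01, adjusted p = 0.926). *Syce1l* and *Hspa2* were lower by small amounts (log2 fold changes -0.28 and -0.27, edgeR adjusted p = 0.00162 and 0.000725). *Fkbp6* was close to the threshold (log2 fold change -0.12, edgeR adjusted p = 0.0659), and was called lower without TMM factors (-0.22, edgeR adjusted p = 0.00204) and with limma on log2(TPM + 1) (-0.26, adjusted p = 0.000368). *Sycp2l*, a paralogue of *Sycp2*, was barely present, at 0.368 CPM in *Arid1a* WT and 0.292 CPM in *Arid1a* cKO.

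Axis cohesins, not all of them specific to meiosis, tie sister chromatids to the axis that SYCP2 and SYCP3 coat. Of 5 such genes, 4 were called higher and 1 lower, where 36.5% and 37.5% of all genes tested were. *Rec8* rose from 23.8 ± 2.27 to 134.4 ± 3.18 CPM (5.65-fold, edgeR adjusted p = 1.18e-13), *Smc3* from 48.7 ± 2.72 to 173.4 ± 6.56 CPM (3.57-fold, edgeR adjusted p = 3.97e-13) and *Rad21l* from 1.26 ± 0.136 to 5.52 ± 0.7 CPM (4.36-fold, edgeR adjusted p = 8.49e-09). *Smc1b* rose 1.5-fold, and *Stag3* was 1.32-fold lower (edgeR adjusted p = 1.13e-05). In the same libraries all 10 spermatid markers were higher, as were 6 of the 9 leptotene and zygotene markers (*Stra8*, *Meiosin*, *Dmc1*, *Prdm9*, *Mei4* and *Rec114*), whose list had a median log2 fold change of 0.75. The sum of that list was lower through *Meioc* (374.6 and 147.0 CPM in *Arid1a* WT and *Arid1a* cKO) and *Spo11* (134.4 and 21.0 CPM). Without these genes the genotypes overlapped (46.3 to 109.6 CPM and 97.7 to 102.9 CPM), but only through *Arid1a* WT replicate 3. *Ctcfl* was at 81.0 CPM in that library and at 18.3 to 25.4 CPM in the other *Arid1a* WT libraries. The sums of those other libraries lay below every *Arid1a* cKO library. The part of these marker levels in the cohesin differences was not tested.

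HORMAD1 and HORMAD2 share their HORMA domain with MAD2 proteins and with ATG13 and ATG101 of autophagy. The TRIP13 adaptor p31comet is encoded by *Mad2l1bp*. Of these 5 other genes, *Mad2l1bp* and *Atg13* were called higher (log2 fold changes 0.47 and 0.15), *Mad2l1* and *Mad2l2* lower (-0.86 and -0.67) and *Atg101* was not called. The call of *Atg13* was lost without TMM factors and turned to -0.05 with transcript length offsets. Of 6 genes of the signalling that HORMADs help to recruit to unsynapsed chromatin, 5 were lower and 1 higher. *Atr*, the checkpoint kinase of the sex body, fell from 947.7 ± 54.4 to 272.0 ± 9.98 CPM, 3.48-fold lower (edgeR adjusted p = 7.18e-13). *Mdc1*, *Atrip*, *H2ax* and *Topbp1* had log2 fold changes of -0.98, -0.74, -0.65 and -0.64, while *Brca1* rose from 17.4 ± 1.62 to 40.2 ± 2.46 CPM (edgeR adjusted p = 1.33e-09). These are RNA levels and do not measure protein on the sex body. By immunofluorescence, the authors describe ATR, MDC1 and γH2Ax (phosphorylated H2AX) there as appearing normal in cells lacking ARID1A. In all, 10 of these 28 genes were higher, 14 lower and 4 not called, next to 36.5% and 37.5% of all genes tested.

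**Figure D4:**
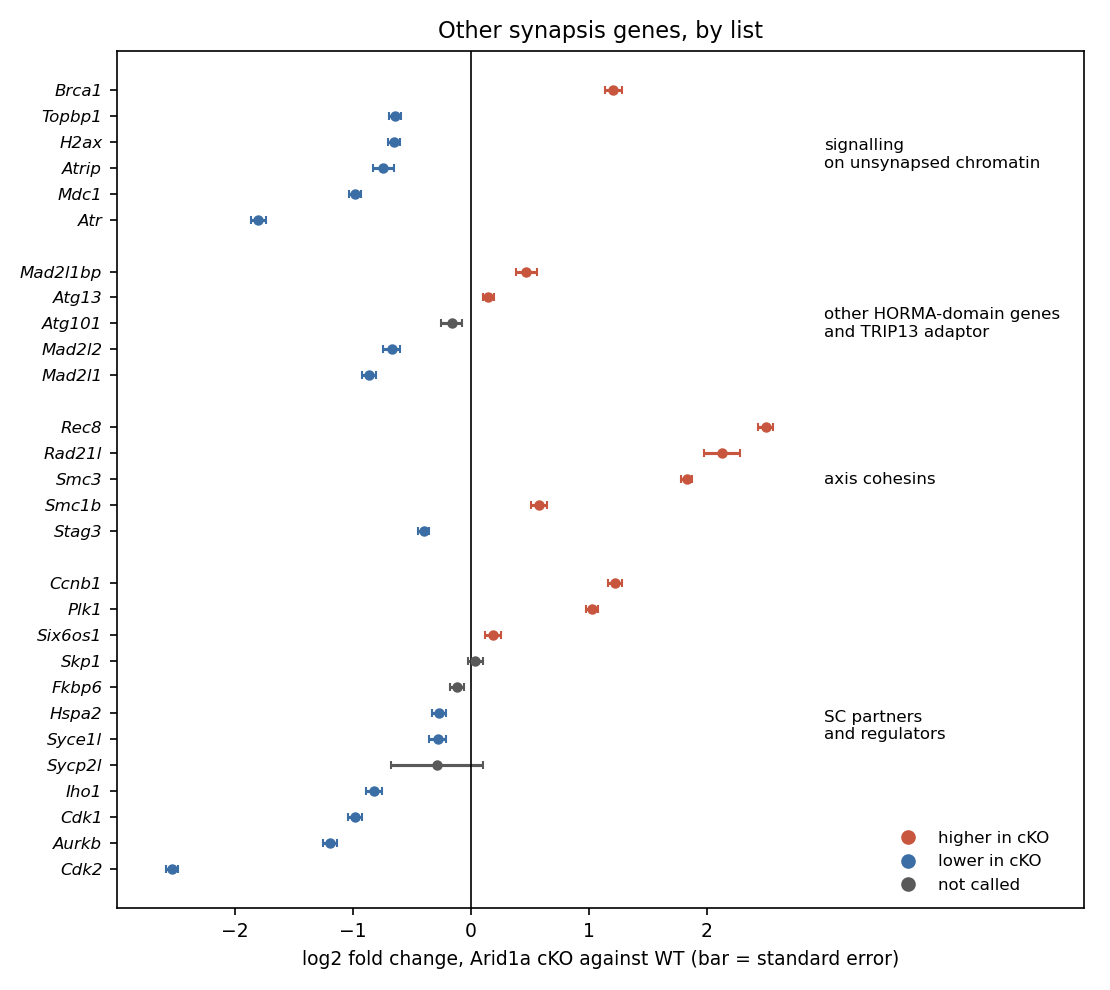
Log2 fold change (x axis) of the 28 other genes counted by role, in *Arid1a* cKO relative to *Arid1a* WT and grouped by list. Not all of them act in synapsis. Bars are edgeR standard errors, and colours give the call at an adjusted p of 0.05. *Rec8* at 2.50 and *Cdk2* at -2.53 mark the ends of the range.

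For *Sycp3* and *Hormad1*, the genes whose abundance followed theirs most closely over the 8 libraries were found among 12997 genes, by Euclidean distance of centred log2 CPM. For *Sycp3* these were *Zfp54*, *Ccdc90b* and *Sptlc2*, at distances of 0.0794, 0.123 and 0.128 log2 units. For *Hormad1* they were *Ttc26*, *Alg11* and *Adck5*, at 0.128, 0.136 and 0.158 log2 units. None of these 6 genes is in the lists above.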

How the data were processed

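Reads were quantified by the authors with Salmon and summarised per gene with tximport and mm10 annotation. The authors deposited estimated counts and TPM per gene and library. Versions are not given in the sources used here. Every value column was matched to a sample by its label, with 0 left out. The deposited table of DESeq2 results (fold changes and p-values) was not used.

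The design had assumed whole counts, but 50.84% to 57.07% of the estimated counts in a library were not whole. They were rounded. Testing used genes with at least 10 counts summed over all 8 libraries and edgeR 4.0.16 in R 4.3.3 (TMM, glmQLFit, glmQLFTest, genotype as the only factor), with Benjamini-Hochberg adjustment over all 17643 genes. CPM used TMM-scaled library sizes. In a test on simulated data, edgeR recovered 98.5% of 200 genes changed 2-fold among 17323, and 2.96% of its calls were false. Most genes were unchanged there, whereas 74.0% of genes were called in these data. The simulation therefore does not show how the calls or the TMM scaling hold here. DESeq2 1.42.0 and limma 3.58.1 were alternatives. Coordinates and promoter windows came from RefSeq GRCm38.p6, in which all 10 genes were matched. The 31-base words came from GENCODE M21. Tables and plots used Python 3.11.15.

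The 10 genes and the lists were chosen with earlier results of these data known. By rule, all 10 were named, with *Arid1a* and the 3 most alike genes of *Sycp3* and *Hormad1* (average log2 CPM of 1 or more), and called genes of the lists could be named. List genes that were not called, single marker genes and genes that share sequence with the 10 were named, and sums of marker lists without single genes were taken, after the values were seen. The labels call the libraries biological replicates, but nothing states that each came from a separate purification, so p-values measure the spread between these samples, which may be technical. Pairs of replicates differed by more than counting noise (chi-square per degree of freedom of 4.38 to 18 in *Arid1a* WT and 1.71 to 3.45 in *Arid1a* cKO).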

Additional observations from a re-analysis of the deposited data

Results flagged for a closer look

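Among 104 groups of 4 libraries examined for a library far from the rest (52 measures in 2 genotypes), 2 passed Dixon's 95% critical value for 4 samples, where chance flags about 1 in 20 groups, or 5.2 here. For the CPM of *Syce1* in *Arid1a* cKO, replicate 1 was the highest at 387.8 CPM, above 359.1 to 363.7 CPM in the others, a gap of 0.841 of the range. For the CPM of *Plk1*, which encodes a kinase of prophase exit, *Arid1a* WT replicate 4 was the highest at 111.2 CPM, above values of up to 99.8 CPM, a gap of 0.937 of the range.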

How the results depend on the processing

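Of 210 log2 fold changes of the 10 genes under alternative settings and with each library left out, 204 kept their direction and call, and 0 reversed. *Syce1* became called at -0.20 without TMM factors, at -0.23 with limma on log2(TPM + 1) and on log2(TPM + 0.1), and at -0.38 with limma on TPM rescaled to the listed genes, an alternative chosen after seeing the data; leaving out 1 library moved it between -0.17 and -0.02. On rescaled TPM *Trip13* was called at -0.35. The median of all genes moved by -0.098 log2 units without TMM factors and by -0.113 on rescaled TPM. All 48 leave-one-out values of the partner ratios (chosen after seeing the data, as for lengths) kept their direction. That outcome was fixed in advance, since the genotypes did not overlap in any pair, so it adds no support. With lengths, 0 to 1 of the 10 genes passed, 1 of them without *Arid1a* cKO replicate 1. Of the other HORMA-domain genes and the TRIP13 adaptor, 1 was called higher without TMM factors, with length offsets, with limma on either TPM scale or at an adjusted p of 0.01, and 0 on rescaled TPM, where 4 were called lower; with 1 library left out, 1 to 2 were called higher. Among the other genes, 575 of 607 values kept their direction and call, 22 crossed the threshold and 10 reversed. Those that crossed it were values of *Six6os1*, *Fkbp6* (called lower, at -0.16 to -0.41), *Atg13*, *Atg101* and *Mad2l1bp*. Those that reversed were *Six6os1* (*4930447C04Rik*), to -0.14 on rescaled TPM, *Skp1*, to -0.05 without TMM factors, -0.00 with limma on either TPM scale, -0.15 on rescaled TPM (called lower) and -0.01 without *Arid1a* WT replicate 3, and *Atg13*, to -0.05 with length offsets, -0.13 and -0.14 with limma on log2(TPM + 1) and log2(TPM + 0.1), and -0.28 on rescaled TPM (called lower). The causes were not tested. Same-numbered libraries did not deviate together (r of -0.137 to 0.162, and 1 *Arid1a* WT library correlated best with its own number), so the numbers were not taken as pairs. With the replicate number as a block, 13100 genes were called in place of 13048, 3 of the 10 were higher and 5 lower, *Syce2* was at 1.67 and *Sycp2* at -1.66. Sequence shared with *Chpt1*, *Gm15529* and *Sycp1-ps1* may limit the counts of *Sycp3*, *Hormad1* and *Sycp1*, but shared reads were not measured. *Tex12*, *Hormad2* and *Trip13* had the fewest counts, 146 to 330 a library.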
